A study of Mus musculus with 48 samples.

Results

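The 3′-half of a tRNA is the piece that runs from the anticodon to the 3′ end, and 58 such fragments with parents other than the Asn and Asp tRNAs are described here in mouse ganglia. They were taken from a table of 13007 tRNA fragments (tRFs) in which 223 were annotated as 3′-halves. Fragments whose every annotated location was an Asn tRNA, or whose every location was an Asp tRNA, were dropped (45 fragments with 25652 counts), and the rest had to reach 10 counts summed over 48 libraries, which left out another 120 fragments with 331 counts in all. The members were thus chosen by their summed count, and their totals are given as a description. Just inside that minimum stood fragments of GlyGCC and LeuTAG with 10 counts each, and just outside it a pair of GluTTC fragments with 9 counts each. The 58 members held 9989 of 12563678 tRF counts, or 0.0795%, against 65.6% for the 5′-halves, so all that follows concerns a small share of the tRFs.

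Balb/c mice of both sexes, 2.5 months old, were injected into the peritoneum with lipopolysaccharide (LPS) of E. coli O55:B5 at a dose of 2.5 mg/kg, dissolved in saline, or with saline as the control, each in a volume of 0.2 mL. LPS, a component of the bacterial outer membrane, triggers systemic inflammation. The trigeminal ganglion (TG), which holds the sensory neurons of the head, and the superior cervical ganglion (SCG), which holds sympathetic neurons, were collected 4 h, 24 h or 7 d after the injection. Each of the 12 groups (ganglion, treatment and time) had 4 libraries, 2 from males and 2 from females. A library used 140 ng of RNA, taken from the left and right ganglia of 1 kind in 1 mouse. Both ganglia were removed from every mouse, but no label ties an SCG library to a TG library, so the p-values below treat libraries as separate samples.

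Under stress, the nuclease angiogenin and related enzymes cut mature tRNAs in the anticodon loop into a 5′-half and a 3′-half. A mature tRNA ends in the bases CCA, which are added after transcription and carry the amino acid, so a 3′-half with this tail comes from a processed tRNA. Such fragments have been linked to translation control and to inflammation, and in the nervous system their levels change after injury. Standard small RNA libraries join adapters only to fragments with suitable ends and read through modified bases poorly, so counts of different fragments cannot be read as relative amounts.

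The members fell on 14 parent names. A parent is given here as the amino acid and the anticodon, so GlyCCC is a glycine tRNA with the anticodon CCC. The sequences below are those on which the results turn. They show 1 full-length tail for each leading parent and start, with the anticodon bases left at the 5′ end and the tail at the 3′ end in capitals. Bases are counted from 1 at the 5′ end of the annotated tRNA.
tRF-42-KQWYL1M3WE8S68L52, GlyCCC from base 33: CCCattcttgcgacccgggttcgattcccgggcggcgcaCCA
tRF-40-J9ZH0SR9593KMH26, GlyCCC from base 35: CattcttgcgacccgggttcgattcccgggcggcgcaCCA
tRF-41-81JJ6RRNLIK898O1B, GluTTC from base 35: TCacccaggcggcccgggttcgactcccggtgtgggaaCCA
tRF-40-2R1HPSR9O9337KB6, GluTTC from base 36: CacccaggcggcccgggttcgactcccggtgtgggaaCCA
tRF-42-45LSM1M3WE8SSP6D2, GluCTC from base 34: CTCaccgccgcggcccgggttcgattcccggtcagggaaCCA
tRF-41-81PV6RRNLNK88KO1B, GluCTC/GluTTC from base 35: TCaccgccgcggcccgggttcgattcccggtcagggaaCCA
tRF-40-2S3HPSR95933JKB6, GluCTC/GluTTC from base 36: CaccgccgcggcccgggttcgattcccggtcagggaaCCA
tRF-42-0HJBRR93W0K672052, ValTAC from base 35: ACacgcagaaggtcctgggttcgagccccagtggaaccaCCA
tRF-42-YEN0RR1380877S6V2, LysTTT from base 35: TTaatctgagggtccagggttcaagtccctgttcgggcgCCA
tRF-49-UMJYXZX5Q4R9OMKM4W1V, SerGCT from base 36, tail short by 1 base: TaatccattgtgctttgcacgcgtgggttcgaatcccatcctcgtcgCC

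The names hide how alike these fragments are. All 6 GluCTC/GluTTC members are the 3′ end of a GluCTC member. They carry the double name because, once the first anticodon base is gone, they match annotated locations of both anticodons. The members named GluTTC alone have another sequence, and 0 of them end with a GluCTC/GluTTC member. The GluTTC and GluCTC/GluTTC members that start at base 36 with a full tail are both 40 bases long and differ at 6 of them. The letters GTTCGA, part of the T arm of many tRNAs, were in 51 of the 58 members with 95.04% of their counts, and GTTCAA was in the other 7. Among the 25 Asn and Asp 3′-halves with 10 or more counts, 18 held GTTCGA and 7 held GTTCAA. The members came from 15 distinct sets of tRNA genes. Most of them are therefore length variants of few tRNAs and are not independent.

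GlyCCC gave 7 members and 3068 counts, 30.7% of all member counts. GluTTC gave 10 members and 2334 counts (23.4%). GluCTC/GluTTC gave 6 and 2088 (20.9%), ValTAC 5 and 772 (7.73%), and GluCTC 6 and 570 (5.71%). Glycine and glutamate tRNAs thus carried most of the counts. LysTTT had 392 counts, SerGCT 252, MetCAT 206, GlyGCC 122 and GlnCTG 103, each of them at least 1% of the total. ThrAGT (35 counts), ValAAC/ValCAC (24), ThrCGT (13) and LeuTAG (10) completed the list, and none of them passed the filter on low counts in the ganglion comparisons.

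The full CCA tail was on 22 members with 62.1% of the counts. Another 24 members with 31.8% lacked the last A, and 12 members with 6.06% ended at the first C. At the other end, 19 members with 51.3% of the counts began at the last anticodon base, 20 with 27.1% at the middle one, 13 with 19.5% at the first, and 6 with 2.03% at the base before the anticodon. No member began after the anticodon. A fragment with a later start that is annotated as another type would not be in these shares or in those below. Lengths ran from 38 to 50 bases. The table lists no tRF over 50 bases, which is the length of the SerGCT fragment with the full tail, so a SerGCT fragment with an earlier start and a full tail would not be seen.

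Depth set how much can be read from single libraries. The tRF total was 61218 to 1511191 counts per library, of which 48 to 602 counts and 21 to 44 fragments were members. In the SCG, the members made up 0.0169% to 0.1104% of a library's tRF counts (median 0.0411%, n = 24). In the TG the range was 0.04998% to 0.301% (median 0.186%, n = 24). The lowest TG libraries overlap the highest SCG libraries on this scale. The tRF total itself was a larger share of the miRNA total in the SCG (median 8.08%) than in the TG (median 3.99%), so the same counts were also set against miRNA. As CPM of miRNA (counts scaled to the usual round total, here that of the library's miRNA), the SCG libraries held 19.6 to 61.5 (median 32.9) and the TG libraries 47.3 to 159 (median 73.1). On either scale, therefore, the medians were higher in the TG. Between libraries of the SCG the coefficient of variation was 55.4% per tRF count and 27.6% per miRNA count, and in the TG it was 38.9% and 30.2%.

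**Figure D1:**
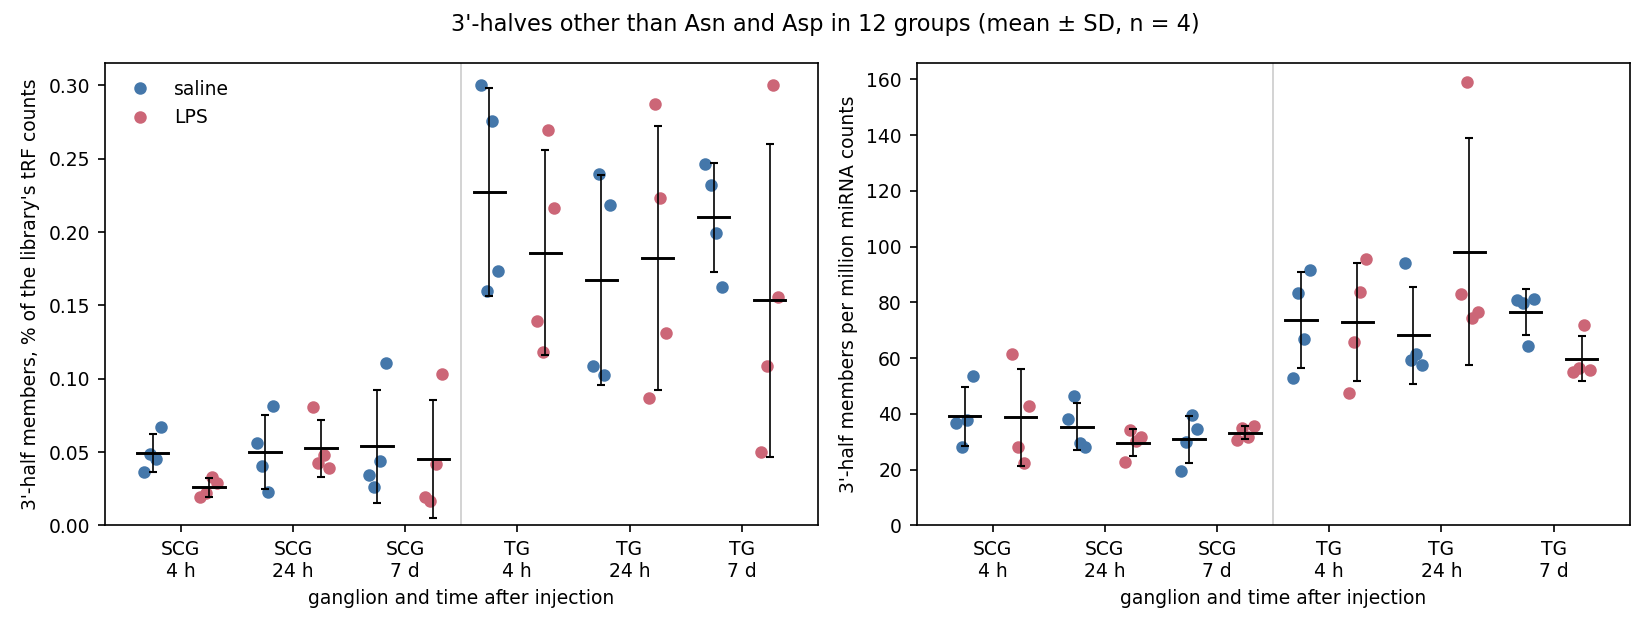
Summed 3′-half members in each of 48 libraries, as a percentage of the library's tRF counts (left) and as CPM of miRNA (right), by ganglion and time, with saline in blue and LPS in red. Points are libraries, the wide bar is the mean and the thin bar the SD (n = 4). The TG medians (0.186% and 73.1) lie above the SCG medians (0.0411% and 32.9), and LPS and saline libraries overlap in most groups.

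The ganglia differed in more than these fragments. RNA yield was 193 ng/µL for TG and 64 ng/µL for SCG. The RNA integrity number, a score of RNA breakdown, averaged 8.3 over the 48 samples, with a range of 6.4 to 9.3. It is not split here by ganglion. Of 8 lists of marker miRNAs, for neurons, glia, other cell types and the response to LPS, every one of the named miRNAs was found and none was at 0 throughout. The sensory neuron list (3 of 3 miRNAs) summed to 56666 to 81776 CPM of miRNA in the TG and to 240 to 22627 in the SCG (median 1252), where replicate 1 of SCG 24 h saline stood highest. The glia list (4 of 4) ran from 5476 to 9042 in the TG and from 146 to 3255 in the SCG. The epithelium and pituitary list (9 of 9) was at 3831 to 30823 in the TG and 17981 to 47810 in the SCG. The neuron list (7 of 7) was at 28210 to 64895 in the TG and 27497 to 63789 in the SCG, and the erythroid list (4 of 4) at 883 to 5570 and 554 to 2719. The muscle list (5 of 5) was at 4439 to 14400 in the TG and 219 to 93291 in the SCG, highest in SCG 4 h saline replicate 1. The leukocyte list (5 of 5) was at 257 to 684 in the TG and 342 to 10150 in the SCG, highest in SCG 7 d LPS replicate 2, and the list of LPS-induced miRNAs (4 of 4) was at 7535 to 24197 and 7775 to 48831. What part these differences have in the results below was not tested. In such bulk samples, fewer cells of a type and less RNA per cell cannot be told apart.

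The ganglion comparison asks whether sensory and sympathetic ganglia carry the same 3′-halves. In the saline libraries, 12 of the 58 members passed the filter on low counts. By edgeR, 8 of them were higher in the TG and 1 was lower, at an adjusted p under 0.05, while 42.7% of all 571 tRFs tested passed in either direction (20.8% of those tested as higher and 21.9% as lower). In the LPS libraries, 10 of 13 members that passed the filter were higher and 0 were lower, against 50.3% of 599 tRFs in either direction (26.7% as higher and 23.5% as lower). No member was called lower there by DESeq2, which called 10 higher, and no other member had an unadjusted p under 0.05. These counts are a description, since a member that passes a filter only through the ganglion where it is high had to differ. The adjusted p-values and ranges of such members, given below, are a description for the same reason. In the saline libraries 9 of the 12 members, 7 of the 8 higher ones among them, had enough counts in the TG alone. In the LPS libraries it was 10 of the 13 and 8 of the 10. The other higher ones passed on the counts of either ganglion and were GlyCCC fragments with the full tail, from base 33 after saline and from bases 33 and 35 after LPS. The same holds for the median log2 difference of the members that passed, which was 1.84 in saline and 1.98 in LPS libraries, beside -0.04 and -0.03 for all tRFs tested. The comparisons share no library. With the libraries scaled to miRNA instead, the medians of all tRFs moved to -0.13 and -0.36 and those of the members to 1.69 and 1.70, with 8 and 9 members called higher. Of all tRFs called in the LPS libraries, 53.2% were higher in the TG, and 40.9% were with the scaling to miRNA.

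Over all 58 members, including those too rare to test, 52 (89.7%) had a higher CPM of all tRF in the TG, beside 69.6% of the 3302 tRFs with 10 or more counts. In CPM of miRNA it was 42 (72.4%), beside 34.2% of those 3302 tRFs. The 6 members that were lower in the TG on the tRF scale came from GluCTC (4 members) and GluCTC/GluTTC (2 members), and none of them began at the last anticodon base.

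GlyCCC had the most counts. Its fragment from base 35 with the full tail, which keeps only the last anticodon base, ranged in the SCG saline libraries from 0 to 81.9 CPM (of tRF, after TMM scaling, as in all that follows) with a median of 44.6, and in the TG saline libraries from 168 to 355 with a median of 202. No SCG saline library reached any TG saline library. After saline this fragment passed the filter through the TG alone, so its saline values are a description. The log2 difference was 2.35 ± 0.29 (SE, n = 12 and 12; edgeR, adjusted p = 4.8e-07). In the LPS libraries it ranged from 24.8 to 78.9 in the SCG and from 124 to 386 in the TG, again with no overlap, and the log2 difference was 2.29 ± 0.25 (edgeR, adjusted p = 2.4e-08). The GlyCCC fragment from base 33, which keeps the whole anticodon, differed less. It ranged from 32.8 to 175 CPM in the SCG and from 96.2 to 230 in the TG after saline, with overlap, and the log2 difference was 1.02 ± 0.23 (edgeR, adjusted p = 0.00066). After LPS it was 0.99 ± 0.28 (edgeR, adjusted p = 0.0046). The variant from base 35 without the last A showed log2 differences of 2.71 ± 0.41 and 2.21 ± 0.44, both called. The variant from base 33 without the last A was tested only in the saline libraries. It showed 0.86 ± 0.47 and was not called (edgeR, adjusted p = 0.15). Both variants passed the filter through the TG alone, so their values are descriptions.

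GluTTC, a glutamate tRNA, also differed more in its shortest form than in the next. Its fragment from base 36 with the full tail was at 0 to 51.7 CPM in the SCG saline libraries (median 17.4) and at 78.2 to 213 in the TG saline libraries (median 150). The groups did not overlap, and the log2 difference was 2.76 ± 0.35 (edgeR, adjusted p = 5.4e-07). After LPS the SCG libraries held 2.69 to 55.2 and the TG libraries 83.2 to 295, with a log2 difference of 3.04 ± 0.36 (edgeR, adjusted p = 1.2e-07). Without the last A the same fragment showed 2.57 ± 0.40 and 3.51 ± 0.40, both called. These GluTTC fragments, like the next, passed the filter through the TG alone, so their values are descriptions. One base longer at the 5′ end, the fragment from base 35 was at 0 to 73.7 CPM in the SCG and 11.5 to 81.9 in the TG after saline. These ranges overlap, and the log2 difference of 0.95 ± 0.41 was not called (edgeR, adjusted p = 0.065; DESeq2, adjusted p = 0.029). After LPS it was 1.51 ± 0.48 and was called (edgeR, adjusted p = 0.010), but not with miRNA scaling (1.09, adjusted p = 0.059).

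The tail shared by GluCTC and GluCTC/GluTTC held members called in both directions. From base 36, the fragment with the full tail was at 0 to 72.7 CPM in the SCG and at 52.8 to 138 in the TG after saline, and the log2 difference was 1.80 ± 0.36 (edgeR, adjusted p = 0.00024). After LPS it was 1.98 ± 0.38 (edgeR, adjusted p = 9.0e-05). The variant without the last A gave 1.88 ± 0.36 and 2.13 ± 0.33, both called. Both fragments from base 36 passed the filter through the TG alone, so their values are descriptions. From base 35, the full-tail fragment was not called, at 0.05 ± 0.36 after saline and 0.70 ± 0.51 after LPS (edgeR, adjusted p = 0.92 and 0.28). Its variant without the last A was the member called lower in the TG: 0 to 97.0 CPM in the SCG (median 33.9) and 0 to 48.1 in the TG (median 12.9) after saline, a log2 difference of -1.12 ± 0.41 (edgeR, adjusted p = 0.029). That call was lost without the sex term (adjusted p = 0.052), without a filter on low counts (adjusted p = 0.052), without replicates 1 and 2 of SCG 4 h saline (adjusted p = 0.058) and when any 1 of 4 libraries was left out (SCG 24 h saline replicate 2, SCG 7 d saline replicate 4, TG 4 h saline replicate 3 and TG 7 d saline replicate 2, log2 difference -1.05 to -0.89). In the LPS libraries it did not pass the filter on low counts. From base 34, the GluCTC fragment without the last A was tested only after LPS, at -0.17 ± 0.44 (edgeR, adjusted p = 0.79).

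ValTAC, a valine tRNA, was represented mainly by the fragment from base 35 with the full tail. It was at 0 to 49.2 CPM in the SCG and 7.54 to 150 in the TG after saline, with overlap, and the log2 difference was 1.97 ± 0.41 (edgeR, adjusted p = 0.00031). After LPS it was 1.98 ± 0.47 (edgeR, adjusted p = 0.00098). This fragment starts at the middle anticodon base. It passed the filter through the TG alone, so its values are a description. The LysTTT fragment from the same base was tested only after LPS and was not called, at 0.60 ± 0.46 (edgeR, adjusted p = 0.31).

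**Figure D2:**
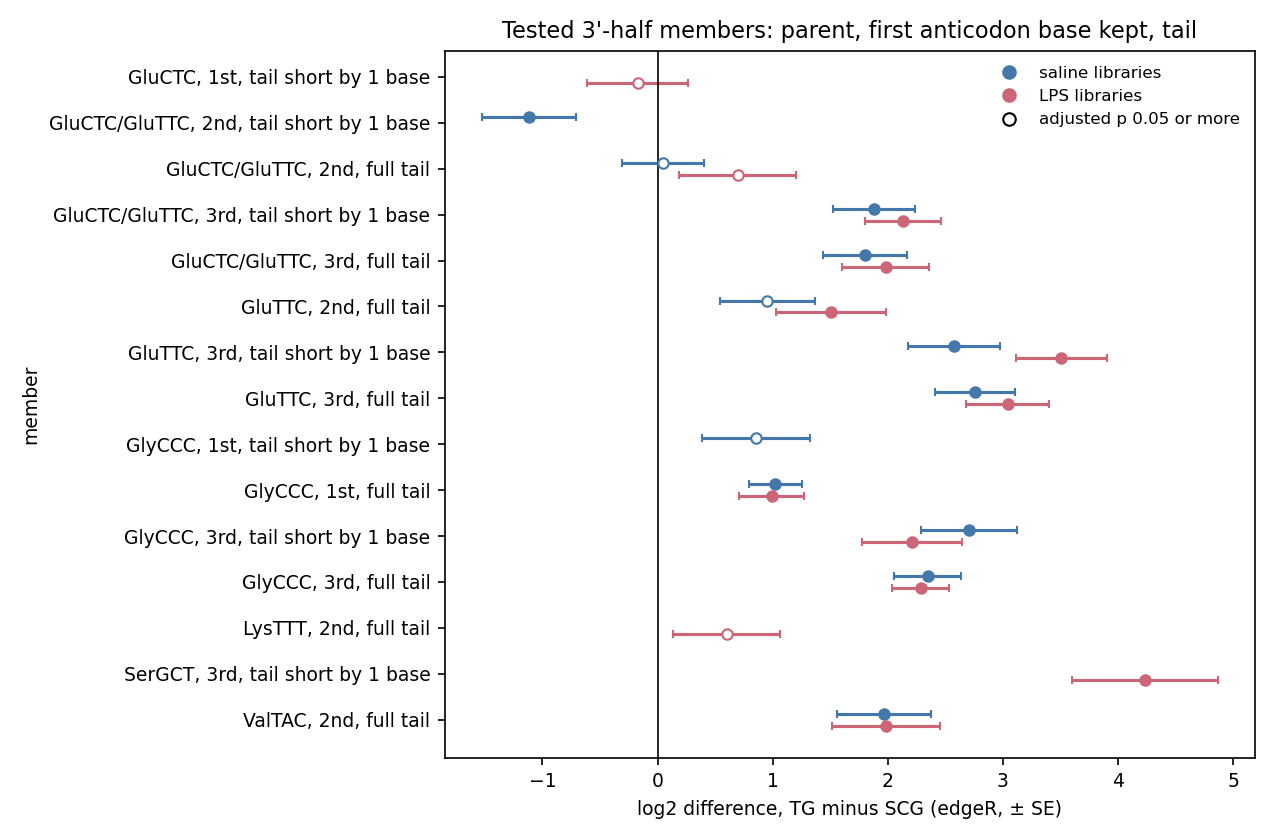
Log2 difference between TG and SCG for each tested member, with its SE from edgeR, in saline libraries (blue) and LPS libraries (red); open points had an adjusted p of 0.05 or more. Labels give the parent, the first anticodon base kept and whether the tail is complete. For GlyCCC, GluTTC and GluCTC/GluTTC the fragments from the last anticodon base lie between 1.80 and 3.51, and those from the earlier bases between -1.12 and 1.51.

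The starts were also compared as shares of each parent's counts, which do not depend on library size. This split was noticed in the values and is given as a description, with no test. Of the GlyCCC counts, 40.6% in the SCG and 63.7% in the TG came from members that start at base 35. Of the GluTTC counts, 41.3% and 74.5% came from base 36. For the tail shared by GluCTC and GluCTC/GluTTC, base 36 gave 31.7% and 63.7%, base 35 gave 39.3% and 19.04%, and base 34 gave 24.9% and 15.7%. In raw counts, summed over 24 libraries of each ganglion, the start at the last anticodon base was 5.29 times as frequent in the TG for GlyCCC (1507 against 285 counts) and 7.30 times for GluTTC (1394 against 191). For the shared tail, base 36 gave 1093 counts in the TG and 298 in the SCG, while base 35 gave 327 and 370.

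By library, the share of GlyCCC counts from base 35 was 16.7% to 56.0% in SCG saline (median 36.5%), 23.1% to 76.5% in SCG LPS (39.9%), 53.1% to 73.5% in TG saline (61.4%) and 51.6% to 74.8% in TG LPS (65.3%). The ranges of the ganglia overlap under both treatments. The share of GluTTC counts from base 36 was 12.5% to 80.8% in SCG saline, 8% to 66.7% in SCG LPS, 64.5% to 83.1% in TG saline and 58.5% to 96.2% in TG LPS. Single SCG libraries hold few GluTTC counts, and their shares spread widely. For GluCTC/GluTTC, base 36 gave 13.04% to 77.8% in SCG saline, 26.9% to 68.8% in SCG LPS, 69.2% to 89.4% in TG saline and 59.8% to 90.7% in TG LPS. Summed over the 4 libraries of a group, the share of GlyCCC counts from base 35 was 25% to 48.4% in the 6 SCG groups and 59.7% to 67.4% in the 6 TG groups, with no overlap. For GluCTC/GluTTC these ranges were 34.9% to 56.8% and 70.6% to 85.9%, and for GluTTC 20.9% to 67.1% and 69.9% to 78.7%. The TG groups lay above the SCG groups for each of the 3 parents. ValTAC did not show this. Base 36, its last anticodon base, gave 3.09% of its summed counts in SCG saline and 7.07% in SCG LPS. In TG saline and TG LPS it gave 1.86% and 4.23%, from 3 to 13 counts in each set.

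**Figure D3:**
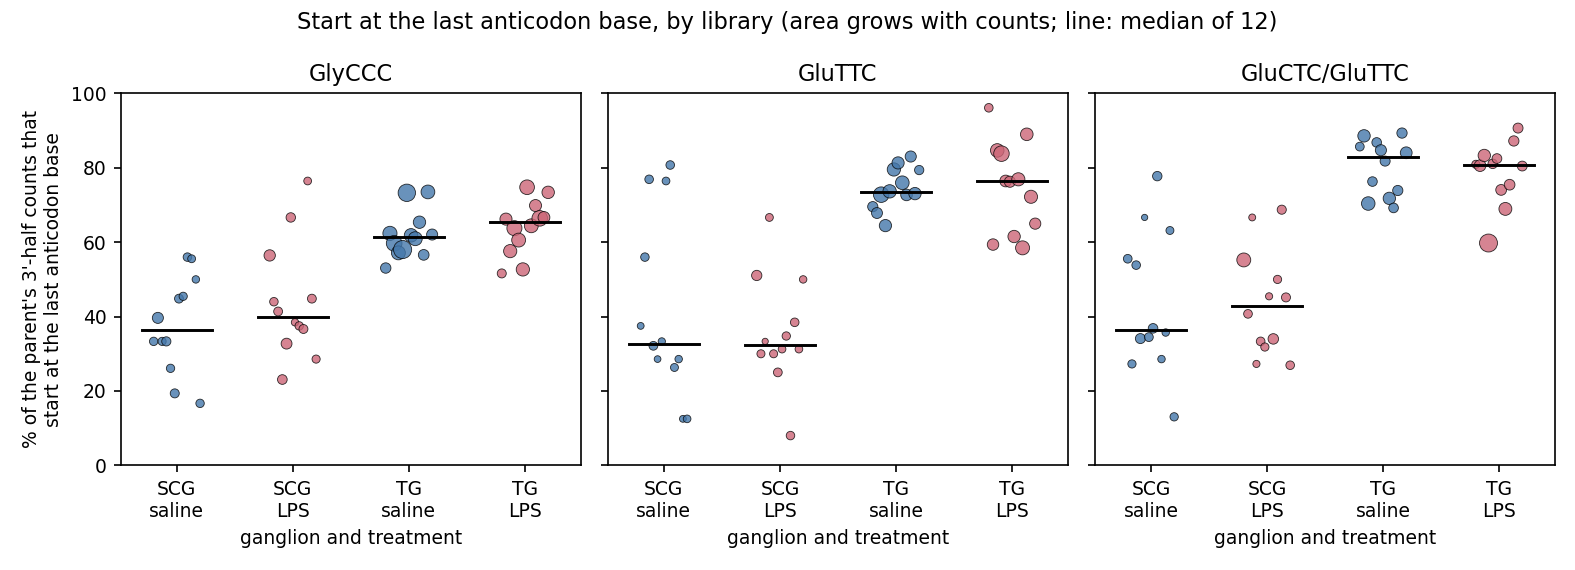
Share of a parent's 3′-half counts that start at the last anticodon base (base 35 for GlyCCC, base 36 for both glutamate parents), in each library, by ganglion and treatment. The area of a point grows with the parent's counts in that library and the line is the median of 12 libraries. GlyCCC medians are 36.5% and 39.9% in the SCG and 61.4% and 65.3% in the TG.

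The share of full tails was close between the ganglia for GlyCCC and GluTTC and further apart for GluCTC and, after saline, ValTAC. For GlyCCC the full CCA tail was on 80.1% (95% Wilson interval 75.4% to 84.1%) and 83.9% (79.9% to 87.3%) of the summed counts in SCG saline and SCG LPS, and on 79.1% (76.8% to 81.3%) and 82.3% (79.9% to 84.4%) in TG saline and TG LPS. GluTTC had it on 57.8% in both SCG sets, and on 59.6% and 60.6% in the TG sets. For GluCTC the shares were 29.4% and 22.1% in the SCG and 56.9% and 44.3% in the TG, from 119 to 174 counts each. GluCTC/GluTTC had 39.7% and 43.2% in the SCG and 48.6% and 53.4% in the TG. ValTAC had 44.3% (34.8% to 54.2%) and 68.7% (59.0% to 77.0%) in SCG saline and SCG LPS and 77.0% (71.6% to 81.6%) and 71.7% (66.4% to 76.4%) in TG saline and TG LPS. In the SCG the ValTAC share was higher after LPS at each time, at 70.2% against 37.5% at 4 h, 68.2% against 47.4% at 24 h and 65% against 52.6% at 7 d, from 19 to 57 counts a group, which was seen in the values and not tested. By library the ValTAC share ran from 20% to 100% in SCG saline and from 40% to 100% in SCG LPS. In TG saline it ran from 57.9% to 100% and in TG LPS from 46.2% to 94.4%. The intervals treat the summed reads as independent, so they leave out this spread between libraries. Reads without molecular identifiers are also not independent molecules, so the intervals can be too narrow.

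To keep the rarer parents in view, all 3′-halves of a parent were summed into 1 family and tested in a table of families. In the saline libraries 6 of 8 tested families were higher in the TG and 0 were lower (edgeR; 43.8% of 146 families of all types passed, 22.6% of the 146 as higher). In the LPS libraries 5 of 8 were higher and 0 lower (46.9% of 143 passed, 17.5% of the 143 as higher). DESeq2 called 6 in each. GlyCCC, GluTTC and GluCTC/GluTTC passed the filter on the counts of either ganglion. ValTAC, SerGCT and MetCAT passed through the TG alone, so their differences and calls are descriptions. GlyCCC differed by 1.76 ± 0.17 after saline and 1.67 ± 0.20 after LPS, GluTTC by 1.95 ± 0.20 and 2.06 ± 0.22, GluCTC/GluTTC by 1.01 ± 0.25 and 1.22 ± 0.32, and ValTAC by 1.36 ± 0.38 and 1.86 ± 0.45 (log2 ± SE, all called). MetCAT, the methionine tRNA, differed by 1.45 ± 0.53 after saline (edgeR, adjusted p = 0.029). After LPS it differed by 1.39 ± 0.61, which was not called (edgeR, adjusted p = 0.061). Its saline call was lost without replicates 1 and 2 of SCG 4 h saline (1.26 ± 0.56, edgeR, adjusted p = 0.075). These were the saline libraries with the most muscle miRNA (93291 and 20268 CPM of miRNA), and the part of muscle in this loss was not tested. Leaving out single libraries gave 5 to 6 called families after saline. GluCTC, at -0.01 ± 0.30 and 0.32 ± 0.38, and LysTTT, at 0.01 ± 0.27 and 0.43 ± 0.31, did not pass in either set (edgeR, adjusted p = 0.24 to 0.99). For comparison, the Asn 3′-halves differed by 2.23 ± 0.18 and 1.98 ± 0.16 and the Asp 3′-halves by 1.31 ± 0.14 and 1.45 ± 0.15.

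**Figure D4:**
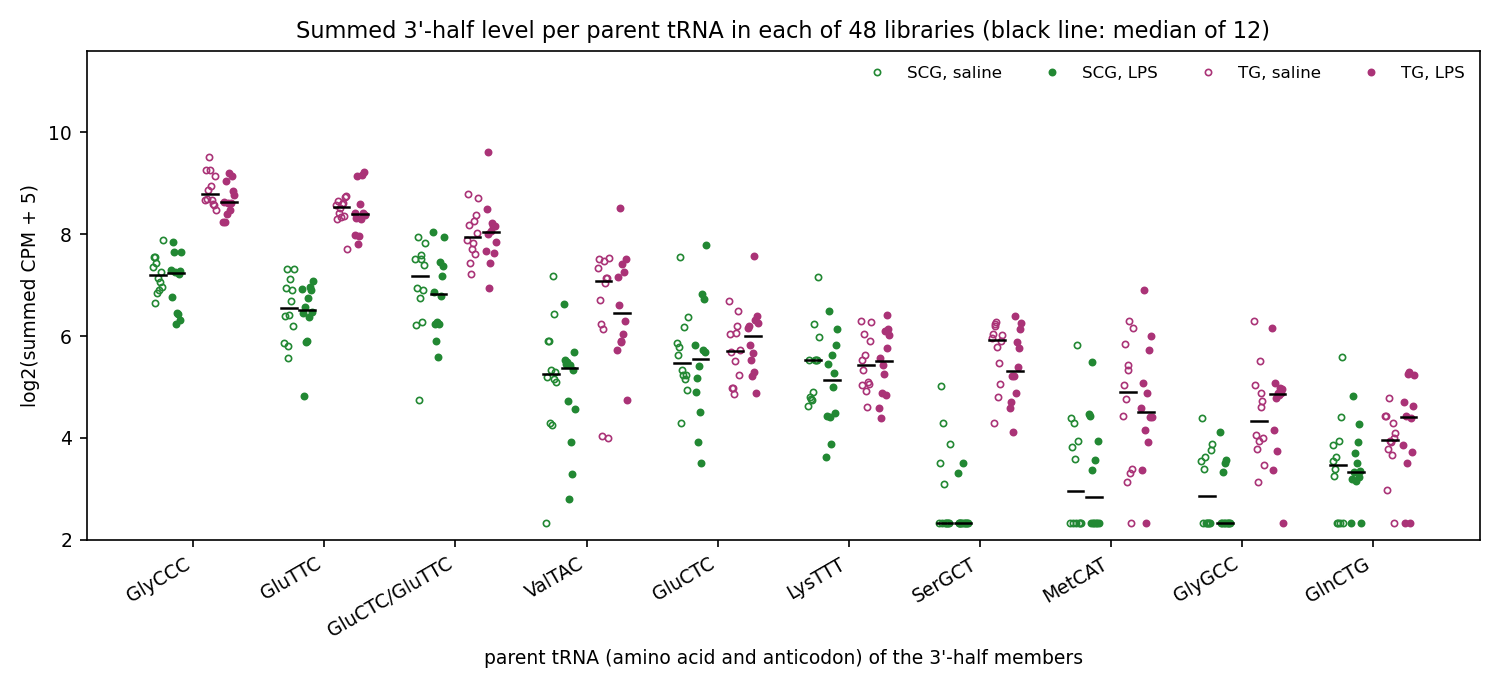
Summed level of the members of each parent in 48 libraries, as log2(CPM + 5), with SCG in green and TG in purple, saline as open and LPS as filled points, and a black line at the median of 12 libraries. GlyCCC lies at 70.4 to 233 CPM in the SCG and 295 to 728 in the TG, with no overlap, while the ganglia overlap for GluCTC and LysTTT.

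SerGCT, a serine tRNA with a long variable arm, had 237 member counts in the TG and 15 in the SCG. In the TG every library held some, at 14.6 to 72.3 CPM after saline and 12.3 to 79.2 after LPS. In the SCG saline libraries 7 of 12 were at 0, and the 2 highest were SCG 24 h saline replicate 1 at 27.3 CPM and SCG 7 d saline replicate 1 at 14.6. These same 2 libraries had the highest sums of the sensory neuron miRNAs in the SCG, at 22627 and 6955 CPM of miRNA. A link between SerGCT and these miRNAs was not tested. In the SCG LPS libraries 10 of 12 were at 0 and the others were at 4.93 and 6.38. SerGCT entered the tests only through its TG counts. Its fitted log2 differences were 3.19 for the family after saline, 4.46 after LPS and 4.24 for the 1 member tested. They were made against many zeros and depend on the prior count, so they are given as descriptions. Without the 2 SCG saline libraries highest in SerGCT, the family difference after saline was 4.08. Those libraries were chosen after seeing the data, and leaving them out had to raise the difference.

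GlyGCC, the other glycine tRNA, gave 19 counts in the SCG and 103 in the TG, and 14 of 24 SCG libraries were at 0. It did not pass the filter with all libraries in the fit. GlnCTG gave 35 and 68 counts and did not pass either. Among the 20 members with the highest counts, 5 more passed in neither ganglion comparison: the ValTAC fragment from base 35 without the last A (70 counts in the SCG and 126 in the TG), the GluCTC fragment from base 34 with the full tail (48 and 132), the GluTTC fragment from base 36 that ends at the first C (28 and 142), the GluTTC fragment from base 35 without the last A (56 and 108) and the LysTTT fragment from base 35 without the last A (77 and 79).

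Several other fragment types of the same tRNAs were lower in the TG or were not called. The 5′-halves of GlyCCC were lower in the TG by log2 differences of -0.84 ± 0.27 and -0.73 ± 0.20, those of GluTTC by -0.56 ± 0.19 and -0.96 ± 0.23, and those of MetCAT by -1.08 ± 0.36 and -1.29 ± 0.34 (saline and LPS libraries, all called by edgeR). The 5′-halves of GlyGCC were also lower, by -0.86 ± 0.25 and -0.69 ± 0.23. For these parents the 3′-half and the 5′-half of 1 tRNA thus differed in opposite directions, where both were called. The ValTAC 5′-halves were higher in the TG by 0.67 ± 0.25 and 0.94 ± 0.27. The 5′-halves of GluCTC, which held 3319752 counts in the SCG and 2750360 in the TG, differed by -0.36 ± 0.27 and -0.17 ± 0.24 and were not called. SerGCT 5′-halves were not called either, at 0.10 ± 0.43 and 0.29 ± 0.37.

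Shorter fragments from the 3′ side gave a mixed picture. Fragments annotated as 3′-tRFs run to the 3′ end, and where they start was not examined. They were lower for SerGCT by -0.50 ± 0.15 and -1.07 ± 0.21 and higher for GluCTC/GluTTC by 1.67 ± 0.37 and 1.69 ± 0.33, all called. For GlyCCC the 3′-tRFs stood at -0.05 ± 0.13 and -0.31 ± 0.15 and for GluTTC at 0.33 ± 0.14 and 0.30 ± 0.15, with no call. Internal fragments (i-tRFs) of GlyCCC were higher in the TG, by 1.70 ± 0.14 and 1.52 ± 0.13, both called. Those of GluTTC, at -0.07 ± 0.17 and 0.13 ± 0.16, did not pass. The 5′-tRFs, cut before the anticodon, were lower for GluCTC by -1.35 ± 0.27 and -1.85 ± 0.36.

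**Figure D5:**
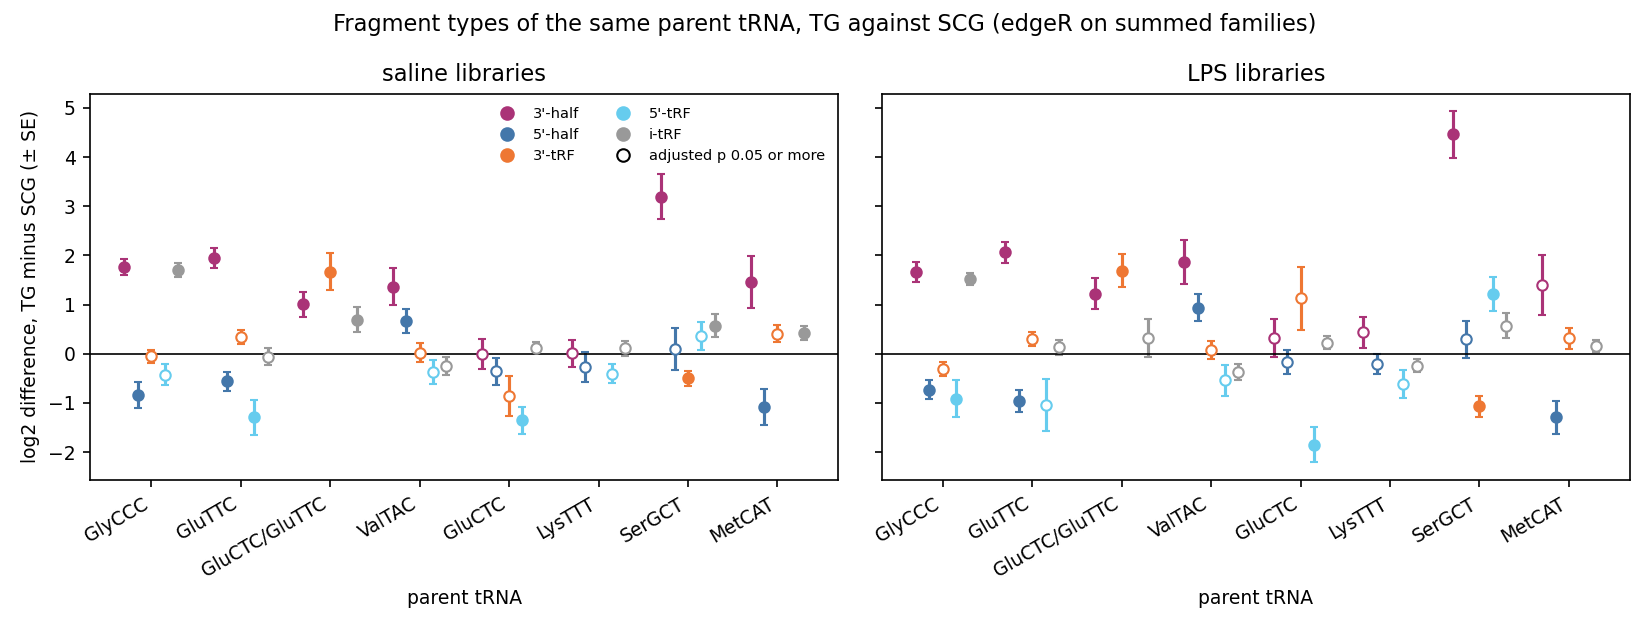
Log2 difference between TG and SCG (± SE, edgeR) of each fragment type, summed per parent, in saline (left) and LPS libraries (right); open points had an adjusted p of 0.05 or more. For GlyCCC the 3′-halves lie at 1.76 and 1.67 and the 5′-halves at -0.84 and -0.73.

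The 5′-halves show where the other piece of a cut tRNA ends. For GlyCCC, 28.9% of the 5′-half counts in the SCG and 47.4% in the TG ended at base 34, the middle anticodon base. That end is the partner of a 3′-half that starts at base 35. Base 31, before the anticodon, was the most frequent GlyCCC end in the SCG, at 49.6%, and held 26.7% in the TG. For GluTTC, 5.11% in the SCG and 8.32% in the TG ended at base 35, the partner of a start at base 36, whereas 33.6% and 57.3% ended at base 33. For SerGCT, 31.6% and 78.1% ended at base 33, the base before the anticodon, and 5.92% and 2.52% at base 35, the partner of a start at base 36. These are shares of summed counts and carry no test.

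The treatment comparison asks whether LPS changed the members within a ganglion. By edgeR, 0 members were called in any of the 6 comparisons, of 7 tested in the SCG and 15 in the TG, and 0% of all 544 tRFs tested in the SCG and 0% of all 559 in the TG passed at each time. At an unadjusted p under 0.05 there was 1 member at SCG 4 h, beside 39 of the 544 tRFs. There were 0 members in the other comparisons. Beside them stood 26 and 27 of the 544 tRFs in the SCG and 21, 45 and 38 of the 559 in the TG. DESeq2 called 0 members at every time. The 1 member was the LysTTT fragment from base 35 with the full tail. It stood at 6.61, 19.007, 46.97 and 25.9 CPM in the saline libraries and 0, 4.13, 0 and 13.6 in the LPS libraries. The groups overlap, and the log2 difference of -2.43 ± 0.93 did not pass (edgeR, adjusted p = 0.58). The median log2 difference of the tested members was -0.43, 0.03 and 0.13 at 4 h, 24 h and 7 d in the SCG and -0.29, 0.08 and -0.21 in the TG. For all tRFs it was -0.05, 0.08 and 0.10 in the SCG and -0.03, -0.02 and 0.02 in the TG.

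By family the result was the same: edgeR and DESeq2 called 0 of 6 tested 3′-half families in the SCG and 0 of 9 in the TG at each time. Of all families tested, 0% of 145 passed in the SCG at each time, and in the TG 0% of 137 passed at 4 h and 24 h and 0.73% at 7 d. At TG 7 d, 14 of all 137 families had an unadjusted p under 0.05. Of the 3′-half families there was 1 over all times and both ganglia, GlyCCC at TG 7 d. GlyCCC had a log2 difference of -0.55 ± 0.26 (edgeR, adjusted p = 0.44). Its summed level there was 560 ± 158 CPM after saline and 401 ± 52.8 after LPS (SD, n = 4 each). In the same groups the neuron miRNA list summed to 33878, 60970, 62774 and 64895 CPM of miRNA after saline and to 31155 to 34574 after LPS. The epithelium and pituitary list stood at 21451 and 26331 in saline replicates 2 and 4 and at 3991 to 16854 after LPS. The part of these differences in the GlyCCC values was not tested. The standard errors of the family differences were 0.26 to 0.90 in the TG and 0.39 to 0.89 in the SCG.

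The level of each leading parent over the 12 groups shows the same spread. GlyCCC in the SCG was at 148 ± 29.9 CPM after saline and 105 ± 33.4 after LPS at 4 h, 138 ± 35.8 and 160 ± 66.3 at 24 h, and 158 ± 56.2 and 141 ± 52.0 at 7 d (SD, n = 4 in every group). In the TG it was at 475 ± 95.2 and 404 ± 124 at 4 h, 407 ± 40.3 and 441 ± 122 at 24 h, and the values given above at 7 d. Every TG group mean was over every SCG group mean. GluTTC in the SCG was at 86.7 ± 34.4 and 94.6 ± 17.6 at 4 h, 121 ± 23.5 and 86.8 ± 44.2 at 24 h, and 79.3 ± 51.8 and 80.5 ± 35.97 at 7 d. In the TG it was at 363 ± 35.1 and 318 ± 56.1 at 4 h, 369 ± 46.9 and 443 ± 136 at 24 h, and 327 ± 92.8 and 345 ± 170 at 7 d. For GlyCCC the gap between saline and LPS exceeded both SDs at SCG 4 h and at TG 7 d. No difference between LPS and saline was called for either parent at any time (edgeR; adjusted p = 0.60 for GlyCCC at SCG 4 h).

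GluCTC/GluTTC in the SCG was at 153 ± 55.9 CPM after saline and 153 ± 81.8 after LPS at 4 h, 137 ± 73.1 and 92.7 ± 38.01 at 24 h, and 128 ± 86.0 and 130 ± 90.3 at 7 d. In the TG it was at 297 ± 99.9 and 278 ± 63.8 at 4 h, 243 ± 76.0 and 375 ± 269 at 24 h, and 255 ± 117 and 198 ± 70.7 at 7 d. The wide SD at TG 24 h LPS comes from replicate 2, at 775 CPM, where the other libraries of that group held 192 to 282. The title of that library spells the treatment PS, and its treatment label is LPS. Without that library the family's TG minus SCG difference after LPS was 1.05 ± 0.25. ValTAC group means ran from 22.2 to 55.6 in the SCG and from 67.0 to 169 in the TG, and those of GluCTC from 38.3 to 79.1 and from 32.8 to 88.8. For ValTAC the group means of the ganglia did not overlap, and for GluCTC they did.

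As a share of tRF counts, the members' sum at SCG 4 h was 0.0366%, 0.0488%, 0.0454% and 0.0672% after saline and 0.0194%, 0.0221%, 0.0329% and 0.0290% after LPS. These groups do not overlap. In CPM of miRNA they do, at 28.1 to 53.7 after saline and 22.4 to 61.5 after LPS, and the tRF total was 5.75% to 10.1% of the miRNA total after saline and 6.80% to 31.7% after LPS. Replicate 1 of SCG 4 h LPS had the highest tRF total of all libraries, 1511191 counts. What part the tRF total has in this difference was not tested. At the other times and in the TG the groups overlap on this scale.

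Whether LPS acted differently in the ganglia was tested as an interaction. By edgeR, 0 of 19 tested members and 0% of 729 tRFs were called at 4 h, 24 h or 7 d. At an unadjusted p under 0.05 there were 2, 2 and 1 members, beside 29, 35 and 29 of the 729 tRFs. DESeq2 called 0 members. The GlyCCC fragment from base 35 with the full tail was the member with p under 0.05 at 7 d, with a difference between the LPS effects of -1.49 ± 0.63 (edgeR, adjusted p = 0.98). Between male and female mice edgeR called 0 of 7 members and 0% of 544 tRFs in the SCG. In the TG it called 0 of 15 members and 0% of 559 tRFs. At an unadjusted p under 0.05 there were 0 members in either ganglion, beside 50 tRFs in the SCG and 53 in the TG. DESeq2 called 0 members in either ganglion.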

How the data were processed

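Small RNA libraries were made with an adapter-ligation kit from 48 of 96 RNA samples of SCG and TG, 4 libraries in each of 12 groups. The authors deposited whole-number counts per miRNA and per tRF, not normalised, with a table of tRF types and locations. Per the submitters' processing notes, FastQC 0.11.9 and GRCm39 were used, and flexbar appears in the tRF table's headers. For alignment and counting, a program is not given in the sources used here. The annotated tRNA locations are those of human tRNA genes, so no genome position is given, and a mouse tRNA that differs from the human one could be missed or named otherwise. Each sequence is the one the authors' table lists for that tRF.

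Counts were tested in edgeR 4.0.16 (quasi-likelihood F-test, TMM scaling, filterByExpr with a minimum count of 10, Benjamini-Hochberg adjustment over all tRFs). LPS fits used the 24 libraries of a ganglion with a term for sex, and ganglion fits used the 24 libraries of a treatment with terms for time and sex. Alternatives were DESeq2 1.42.0, RLE scaling, scaling to miRNA, no filter on low counts, no sex term, and only the 8 libraries of a time. Leaving out libraries was another. Without the filter, a tRF still needed 10 counts summed over the libraries of the fit. SE is the difference divided by the square root of F. Values per library are CPM after TMM scaling over all 48 libraries. The scripts were tested on simulated data. The members, lists and tests were chosen with earlier results of these data known. The text names the 20 members with the highest counts, members called in a comparison, parents with at least 1% of the member counts, called families, and other fragment types of those parents; the first of these are described by parent, start and tail.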

Additional observations from a re-analysis of the deposited data

Results flagged for a closer look

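In 84 sets of 4 libraries (the members' share of tRF counts, their sum in CPM of miRNA, and the summed CPM of the 5 parents with at least 5% of member counts, in 12 groups), 10 had a highest or lowest library far from the rest; chance flags about 1 in 20 such groups. In CPM of miRNA, TG 24 h saline replicate 1 was high at 94.1 (others 57.5 to 61.6), TG 24 h LPS replicate 2 at 159 (others 74.2 to 83.1) and TG 7 d LPS replicate 3 at 71.9 (others 55.1 to 56.4), while TG 7 d saline replicate 3 was low at 64.2 (others 79.7 to 81.0). GluTTC was low in TG 4 h saline replicate 2, at 310.3 CPM (others 377 to 385). GluCTC/GluTTC was low in SCG 4 h saline replicate 2, at 69.7 CPM (others 178 to 187), and high in TG 24 h LPS replicate 2, at 775 CPM (others 192 to 282). ValTAC was low in SCG 24 h LPS replicate 3, at 4.79 CPM (others 35.05 to 40.1). GluCTC was high in SCG 24 h saline replicate 2, at 181 CPM (others 30.9 to 50.1), and in SCG 7 d LPS replicate 4, at 214 CPM (others 17.6 to 46.8). The causes were not tested.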

How the results depend on the processing

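With a minimum of 50 counts there were 32 members, which held 0.0754% of tRF counts. With only a sum of 10 counts required in place of the filter, 18 members were called between the ganglia after saline and 19 after LPS. More of them were tested (44 and 46). Leaving out 1 library at a time makes a group smaller and so loosens the filter, which can let further members in. It gave 10 to 12 called members after saline (9 with all libraries) and 11 to 12 after LPS (10 with all libraries). These higher counts are thus no check on the calls. Called families were 5 to 6 and 5 to 8, and the 8 came without SCG 24 h LPS replicate 2. Every LPS, interaction and sex comparison kept 0 called members or families under all alternatives run for it, which included, for SCG 4 h, leaving out saline replicates 1 and 2 together, an alternative chosen after seeing the data. Of the members called between the ganglia, 2 lost their call under some alternative, as given above, and none changed sign. No paired analysis was possible because the labels give each library its own number and replicate numbers here follow accession order only. Depth limits single libraries to 48 to 602 member counts.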
